A study of Homo sapiens with 8 samples.

Results

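The genes described here are 38 that encode glucose and lactate transporters, the enzymes of glycolysis and their regulators, and the response to low oxygen. They were taken by name from the 35940 gene symbols of the expression table, in which they occupy 39 of 37951 Ensembl entries. Of the 38 genes, 37 reached 1 TPM in 2 or more libraries, the filter on low values, and were tested. The remaining gene, CA9 (a carbonic anhydrase induced by low oxygen), was listed at no more than 1.51 TPM and was not tested.

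The cells were ESI017, an established human embryonic stem cell line, labelled wild type, so all groups come from a single line. They were seeded 24 h before differentiation began and then kept in the neural medium N2B27, which lacks serum, with the agents SB at 10 µM and LDN at 100 nM, which all groups share. WNT3A protein at 300 ng/mL was given at 34 h, and poly(A) RNA was sequenced at 34 h (before WNT3A) and at 42, 50 and 72 h, that is after 8, 16 and 38 h with WNT3A. Each time point had 2 libraries, replicate 1 and replicate 2, whose numbers the labels also give as a batch, and the series' text calls the second set an independent biological replicate. Cells that received no WNT3A were not analysed here, so time and WNT3A cannot be told apart. In bulk RNA of this kind, fewer cells of a type and less RNA per cell cannot be told apart either.

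In glycolysis, glucose enters through facilitative transporters, is phosphorylated by hexokinase, and is split and oxidised to pyruvate, which is reduced to lactate and exported or passed to the mitochondria. Pluripotent stem cells are known for a high rate of glycolysis, and many of the same genes are activated when oxygen falls. Under normal oxygen, prolyl hydroxylases mark the HIF alpha subunit for destruction by the VHL ubiquitin ligase. When oxygen is low, the stabilised subunit joins ARNT and binds short DNA elements with the core ACGTG or GCGTG near glycolytic and other target genes.

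Levels are in TPM, a share of the library's transcripts that accounts for gene length, as deposited by the authors, so the levels of different genes can be set side by side. The depth of the libraries is unknown, and no counting interval was computed. Over the 14908 tested genes, replicates of a time point correlated at a Spearman rho of 0.980 to 0.984. The median standard deviation between replicates was 0.169 on the log2 scale over all tested genes and 0.129 over the 37 tested members. Changes below are differences of log2(TPM + 1), which understate the change of low genes, with their standard error from limma, and n is 2 libraries at each time point. A gene is said to have risen or fallen where limma's two-sided p-value, adjusted over all 14908 genes, was under 0.05, and otherwise values are given without such a verb.

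The labelled cell type was checked against its defining markers. At 34 h all 6 pluripotency markers were at 1 TPM or more in both libraries, and they summed to 3415–3440 TPM. By 72 h 5 of 6 were detected and the sum was 1863–1950 TPM. DPPA4, POU5F1 and TDGF1 fell by 50 h and by 72 h, while LIN28A rose by 50 h and SOX2 rose by 72 h. The share of this list called was 66.7% at both times, beside 6.26% and 24.0% of all tested genes. The summed level of 5 neural progenitor markers, which share SOX2 with the first list, was 367–384 TPM at 34 h. It was lower at 42 h (316–360 TPM), then 412–472 TPM at 50 h and 620–667 TPM at 72 h. By 72 h 4 of the 5 rose (NES, PAX6, SOX1 and SOX2), beside 12.7% of all tested genes. The 9 mesoderm and endoderm markers summed to 13.1–14.2 TPM at 34 h and stepped down through 11.4–11.5 and 8.62–9.23 TPM to 2.05–2.39 TPM by 72 h. Of these, SOX17 and MSGN1 were listed at 0 throughout, and at most 3 of the 9 reached 1 TPM in both libraries of a time point. Of the 3 tested genes, 2 went against that sum at 42 h and at 50 h, with list medians of 1.07 and 0.48. By 50 h MIXL1 rose and FOXA2 fell (66.7% of the 3 called, beside 6.26% of all tested genes), and FOXA2 also fell by 72 h. MIXL1 was at 0.115 and 0.108 TPM at 34 h, 1.66 and 1.32 TPM by 42 h and 1.47 and 1.81 TPM by 50 h, and fell from 50 h to 72 h. The 6 neural crest markers summed to between 4.14 and 14.1 TPM, with the higher values at 72 h. Of the 4 tested, FOXD3 fell by 42 h, 50 h and 72 h. SNAI2 rose by 50 h and 72 h and PAX3 rose by 72 h, so 75% were called at 72 h, beside 24.0% of all tested genes. The 5 neuron markers summed to between 240.1 and 340.5 TPM. Within each replicate the neuron sum was higher at each step from 34 h to 50 h (295, 335 and 341 TPM in replicate 1; 240.1, 269 and 279 TPM in replicate 2) and lay at 253 and 280 TPM by 72 h. In the neuron list 3 of 4 tested genes rose by 72 h (DCX, MAP2 and STMN2, with a list median of 1.00), beside 12.7% of all tested genes, and DCX and STMN2 had risen by 50 h, and STMN2 by 42 h. The 6 amnion and trophectoderm markers summed to 35.2–40.6 TPM at 34 h and 7.27–7.70 TPM at 72 h, most of it KRT7. CDX2 of that list rose by 42 h, from 0.0395 and 0 TPM to 8.92 and 6.47 TPM, was still raised at 50 h (5.94 and 6.73 TPM) and fell from 50 h to 72 h (0.370 and 2.16 TPM). The 8 immediate early and heat stress genes summed to 166–173 TPM at the start and 108–133 TPM at the end. The pluripotency, progenitor, mesoderm and endoderm, neural crest, amnion and stress sums and these 3 neuron markers thus moved with the same time axis as every member change from 34 h to 72 h reported below. Their part in those changes, those of SLC2A3 and ENO2 included, was not tested, nor was that of MIXL1 and CDX2 in the member changes at 42 h and 50 h.

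As a group, the members did not move in a single direction: both glucose transporters rose, 5 of 9 early enzymes of glycolysis fell by 72 h, and of the 6 late enzymes GAPDH alone passed against 34 h. At 42 h, 3 of 37 tested members had changed from 34 h (SLC2A1 and SLC2A3 up, PFKP down), which is 8.11% of them, beside 2.58% of all tested genes (1.78% rose and 0.792% fell). At 50 h the count was 4 (the same 3 genes and EGLN3, which fell), or 10.8%, beside 6.26% of all genes (3.52% rose and 2.74% fell). At 72 h it was 14, or 37.8%, beside 24.0% of all genes. Of these 14, 6 rose (SLC2A1, SLC2A3, SLC16A3, PDK1, BNIP3L and HILPDA) and 8 fell (HK1, HK2, PFKP, ALDOA, ALDOC, GAPDH, VEGFA and ADM), whereas among all tested genes 12.7% rose and 11.3% fell. The members' median change at 42, 50 and 72 h was -0.07, -0.13 and -0.11, beside 0.01, 0.04 and 0.06 for all tested genes.

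From 42 h to 50 h limma called 0 of 37 members, beside 0.0939% of all genes, although 5 members (13.5%) had an unadjusted p under 0.05, beside 9.35% of all genes. The fit that blocks on the replicate number also called 0. From 50 h to 72 h it called 4 (BNIP3L and ENO2 up, HK2 and ADM down), or 10.8%, beside 7.33% of all genes (2.92% rose and 4.41% fell). A moderated F-test over the 3 later time points against 34 h called 14 members (37.8%), beside 17.4% of all genes. These were not the same 14 as at 72 h. ENO2 and ANKRD37 passed the F-test (adjusted p = 0.0206 and 0.0446), while GAPDH (0.119) and SLC16A3 (0.0541) did not, nor did EGLN3 (0.0548). With the replicate number as a block, the count at 50 h against 34 h was 7 and that at 72 h against 50 h was also 7, while the blocked fits called 933 and 1098 of all genes, in place of 933 and 1093. Leaving out 34 h replicate 2 gave 2 members at 50 h, and 412 of all genes in place of 933. Leaving out either 34 h or either 42 h library gave 1 member at 42 h, and 160 to 190 of all genes in place of 384. The F-test count was between 5 and 9 without any single 34 h or 72 h library, with 1158 to 1670 of all genes in place of 2587. From 50 h to 72 h, 1 or 2 members were called without any single 50 h or 72 h library, and 319 to 675 of all genes in place of 1093.

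Ranges of the libraries gave a fuller view of direction at 72 h. Both 72 h libraries lay above both 34 h libraries for 13 of the 37 tested members (35.1%), beside 36.7% of all tested genes, and below both for 19 members (51.4%), beside 27.9%. The remaining 5 tested members overlapped, and CA9, which was not tested, lay above. At 42 h 6 tested members lay above both 34 h libraries and 16 below, beside 22.2% and 20.2% of all tested genes. At 50 h 5 lay above and 16 below, beside 28.3% and 20.1%. From 42 h to 50 h 5 members lay above and 11 below, beside 21.5% and 15.8%, and from 50 h to 72 h 14 above and 11 below, beside 25.8% and 25.9%. By the mean of its libraries, 34 h was the highest time point of 20 of all 38 members and 72 h that of 12, with 4 highest at 42 h and 2 at 50 h. The summed level of all 38 members was 15946 ± 407 TPM (SD, n = 2) at 34 h and 14544 ± 346 TPM at 72 h, and GAPDH alone made up between 35.1% and 38.4% of it.

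**Figure D1:**
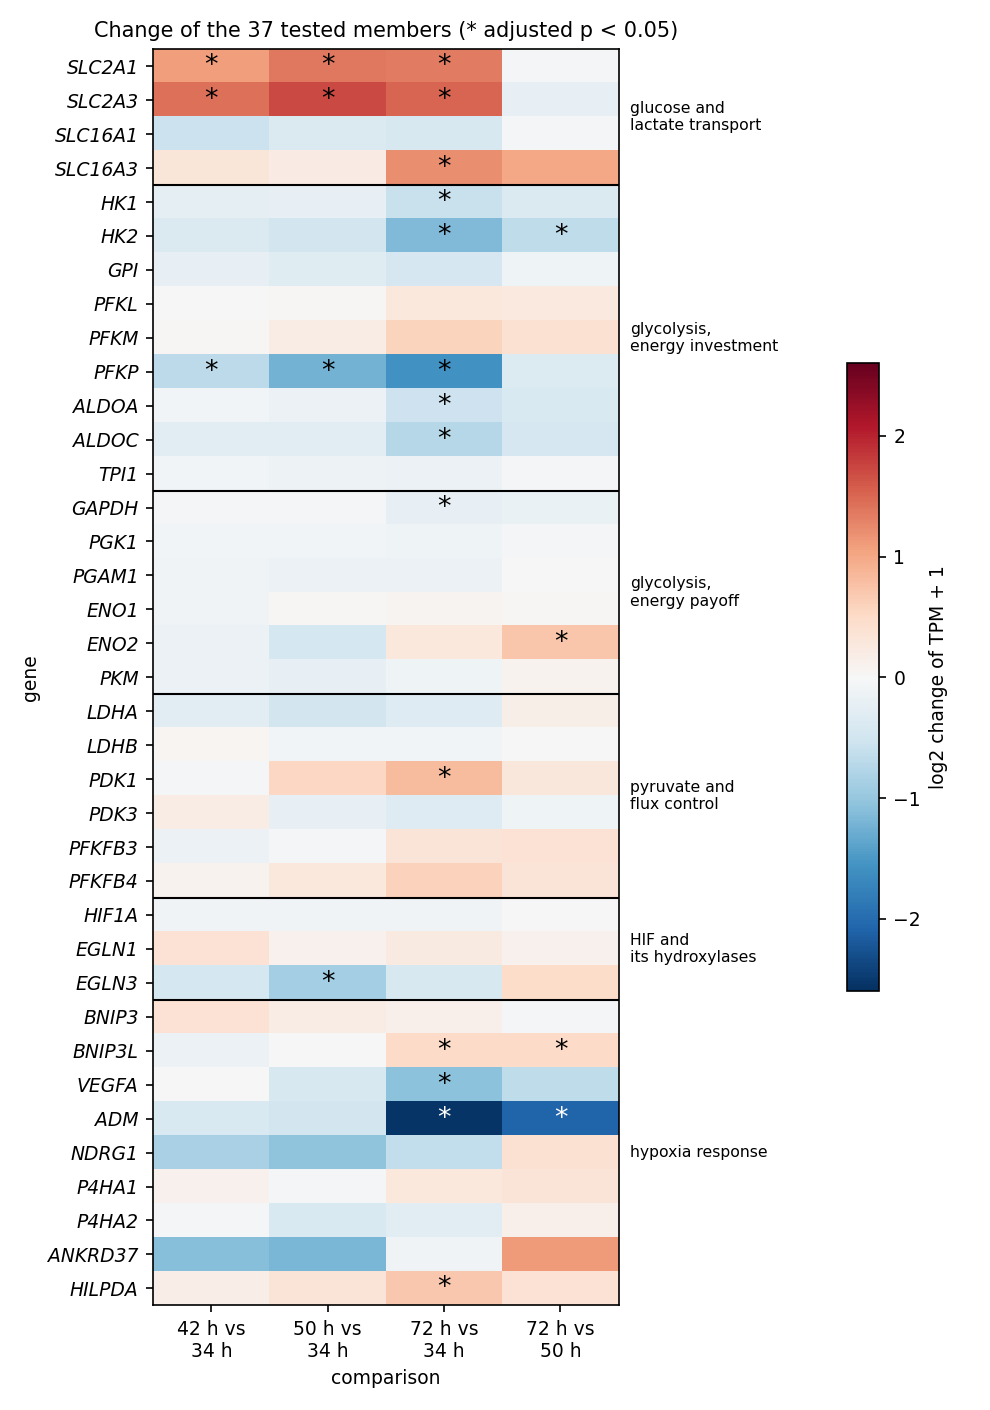
Change of the 37 tested members (vertical axis, grouped by role) in 4 comparisons of time points (horizontal axis); colour is the difference of log2(TPM + 1), red for higher and blue for lower in the later time point, and stars mark limma adjusted p under 0.05. The glucose transporters SLC2A1 and SLC2A3 are red with a star at 42, 50 and 72 h against 34 h, PFKP is blue with a star in the same 3 columns, and ADM is the darkest blue at 72 h.

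Promoter sequence was read for the members from RefSeq (GRCh38.p14), as windows of 250 bases before to 50 bases after each annotated start. A window was found for 32 of the 38 members, 59 windows in all. SLC2A3, SLC16A1, BNIP3L, VEGFA, NDRG1 and HILPDA had none in the set of windows used here. The hypoxia element core, ACGTG or GCGTG on either strand, was in 39 of 59 member windows (66.1%), in 59.9% of the 15826 windows of tested genes and in 48.4% of all 35116 windows. The TCF and LEF core was searched as CTTTGAT or CTTTGAA on either strand, and no other form of it was searched. These letters were in 0 of 59 member windows, in 4.20% of the windows of tested genes and in 6.86% of all. A match shows only that the letters are present. The upstream 250 bases of 3 windows that hold no annotated exon are printed to show the range among members with different courses: HK2, which fell, HIF1A, whose level did not differ detectably, and PDK1, which rose. All are given 5′ to 3′ on the strand of the gene, with capitals for each ACGTG or GCGTG or its complement:
HK2, chr2:74834920-74835169, plus strand: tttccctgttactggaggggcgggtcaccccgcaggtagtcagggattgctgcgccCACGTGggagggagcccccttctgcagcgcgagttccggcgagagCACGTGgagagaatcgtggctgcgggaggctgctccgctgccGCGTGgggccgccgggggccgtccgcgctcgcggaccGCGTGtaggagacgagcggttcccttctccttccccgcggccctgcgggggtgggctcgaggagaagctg
HIF1A, chr14:61695263-61695512, plus strand: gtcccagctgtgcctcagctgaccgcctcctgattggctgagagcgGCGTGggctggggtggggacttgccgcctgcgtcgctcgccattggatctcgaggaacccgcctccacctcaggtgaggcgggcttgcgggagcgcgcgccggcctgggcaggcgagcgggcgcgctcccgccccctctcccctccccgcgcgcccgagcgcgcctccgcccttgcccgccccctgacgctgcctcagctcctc
PDK1, chr2:172555123-172555372, plus strand: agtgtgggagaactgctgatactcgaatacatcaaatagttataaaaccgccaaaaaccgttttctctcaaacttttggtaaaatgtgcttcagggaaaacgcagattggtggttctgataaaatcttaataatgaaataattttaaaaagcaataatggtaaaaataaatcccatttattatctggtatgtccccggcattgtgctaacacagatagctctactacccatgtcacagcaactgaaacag
The HK2 window, whose start lies 1189 bases from the outermost annotated start of the gene, had 6 matches, because the palindrome CACGTG, present at 2 places, counts on both strands. The other HK2 window, 146 bases from that start, had 3. The HIF1A window had 1 match, 204 bases before its start, and the other HIF1A window none. The PDK1 window had none, and the other PDK1 window had 2.

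Of the 4 transporters, both glucose transporters rose early and stayed high. SLC2A3 (GLUT3, a high-affinity glucose transporter prominent in neurons; chromosome 12, 7919230 to 7936275, minus strand, GENCODE release 29 on GRCh38) stood at 118 and 134 TPM at 34 h, 324 and 362 TPM by 42 h, 398 and 434 TPM at 50 h, then 388 and 336 TPM by 72 h, in replicates 1 and 2. All 6 libraries after WNT3A lay above both 34 h libraries, with no overlap. The log2 change from 34 h was 1.44 ± 0.11 at 42 h (limma adjusted p = 0.00048), 1.72 ± 0.11 at 50 h (adjusted p = 0.000111) and 1.51 ± 0.11 at 72 h (adjusted p = 5.38e-05), and each passed under all 18 alternatives. Its near-identical paralog SLC2A14, with which reads can be shared, was listed between 1.15 and 3.69 TPM.

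SLC2A1 (GLUT1, the glucose transporter of most dividing cells; chromosome 1, 42925375 to 42959176, minus strand) was at 120.4 and 88.6 TPM at 34 h, 245 and 199 TPM by 42 h, 338 and 214 TPM at 50 h, then 248 and 282 TPM by 72 h. Every later library was above both 34 h libraries, and the 50 h replicates were the widest apart. SLC2A1 rose by 1.09 ± 0.23 at 42 h (limma adjusted p = 0.0493), by 1.37 ± 0.23 at 50 h (adjusted p = 0.0102) and by 1.35 ± 0.23 at 72 h (adjusted p = 0.00401). The call at 42 h was the least secure: it was lost under 11 of 18 alternatives, with adjusted p between 0.0175 and 0.292, among them the removal of either 34 h library (0.0825 and 0.292), either 42 h library (0.221 and 0.123) or either 72 h library (0.0818 and 0.0798). The call at 50 h was lost without 34 h replicate 2 (adjusted p = 0.0787) and with the compared time points alone (0.0713). The sum of both glucose transporters was 231 ± 11.1 TPM (SD, n = 2) before WNT3A, against 565 ± 4.86 TPM after 8 h with it, 693 ± 62.4 TPM after 16 h and 626 ± 12.8 TPM after 38 h. The share of SLC2A3 in that sum was between 49.5% and 67.0% in every library and overlapped between 34 h and each later time point.

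The lactate transporters differed in level and course. SLC16A1 (MCT1, which carries lactate and pyruvate) was at 604 and 494 TPM at 34 h against 422 and 393 TPM at 72 h, a difference of -0.42 that missed the threshold (limma adjusted p = 0.149) and passed with the replicate block (0.0394) or without either 50 h library (as low as 0.0390). SLC16A3 (MCT4, the lactate exporter typical of glycolytic cells) was low throughout, at 1.86 and 1.42 TPM at 34 h, 2.58 and 2.03 TPM by 42 h, 1.72 and 2.40 TPM at 50 h, then 3.83 and 6.69 TPM by 72 h. Its 72 h libraries were above all others. SLC16A3 rose by 1.21 ± 0.27 from 34 h to 72 h (limma adjusted p = 0.0155), a call lost without 34 h replicate 2 (0.0878) or 72 h replicate 2 (0.104), over a range of 0.0152 to 0.104 across alternatives. SLC16A3 shares 482 exon bases with CSNK1D on the opposite strand, listed at 115 to 155 TPM, and whether counting used strand is not given in the sources used here.

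**Figure D2:**
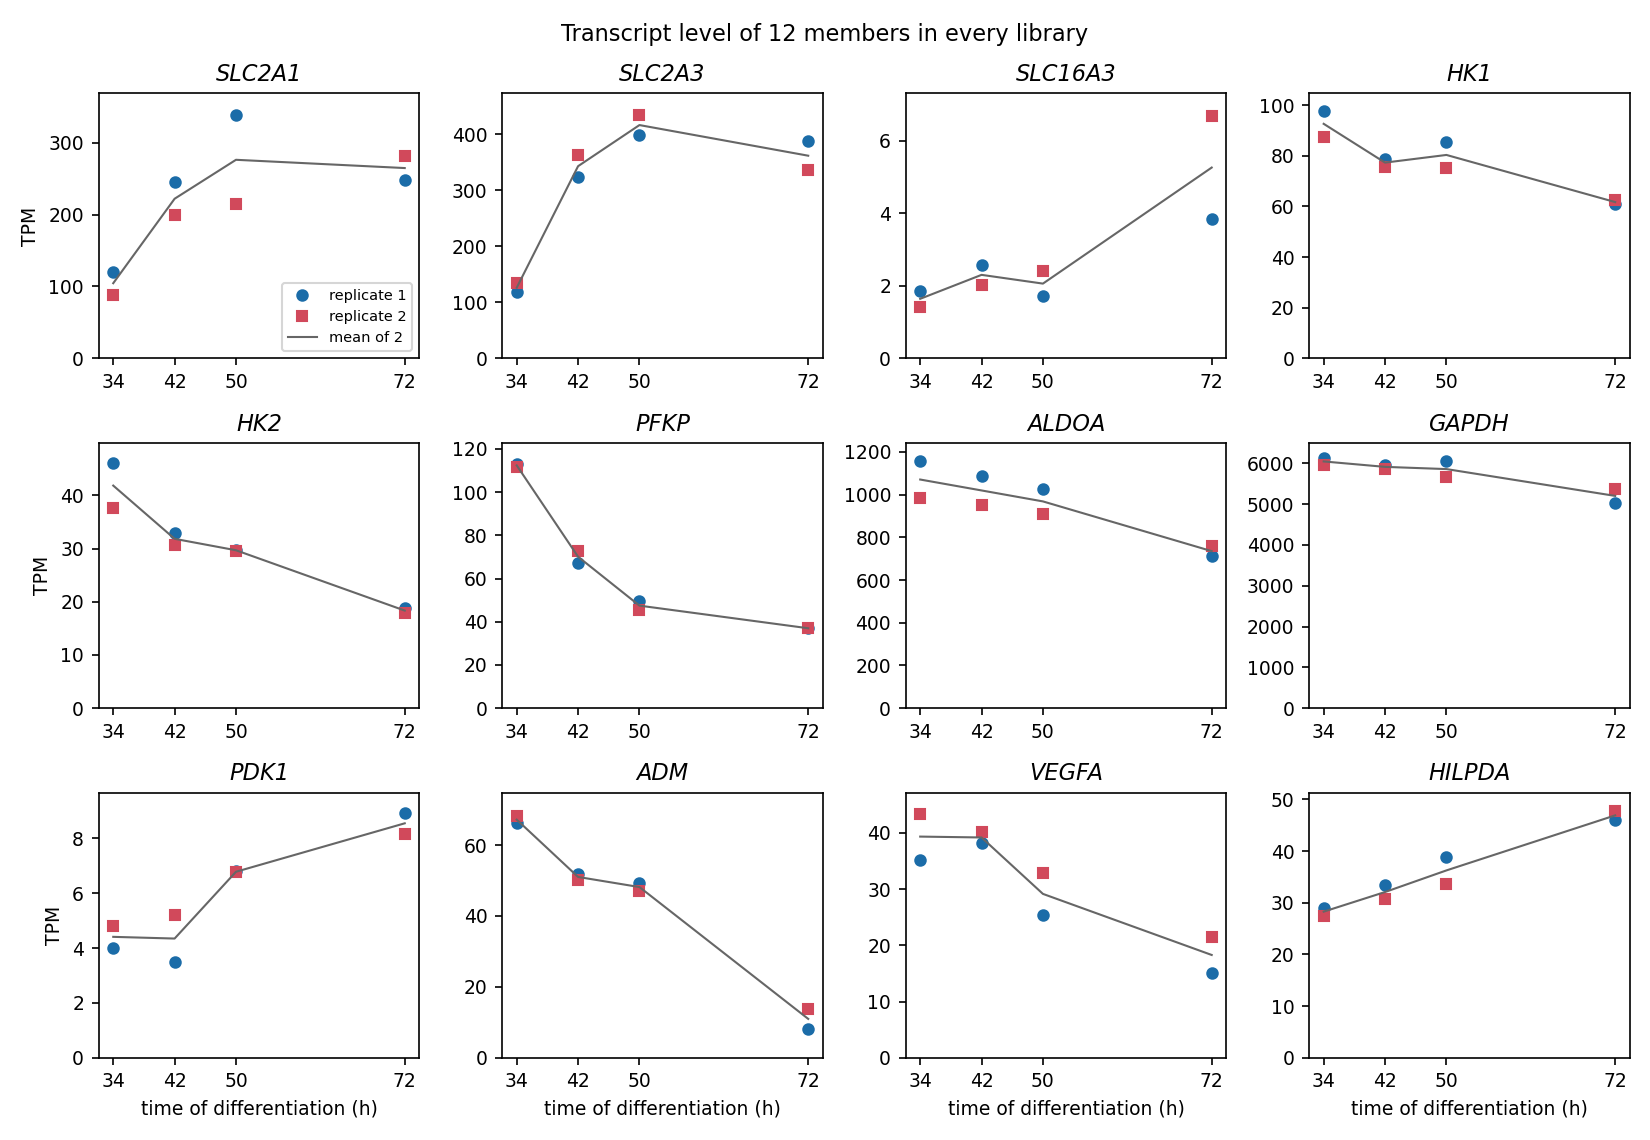
Level of 12 members in TPM (vertical axes, linear and starting at 0) against the time of differentiation in hours (horizontal axes); circles are replicate 1, squares replicate 2, and the line joins the means of 2 libraries. SLC2A3 goes from 118 and 134 TPM at 34 h to 324 and 362 TPM at 42 h, and ADM drops to 8.15 and 13.8 TPM at 72 h. Both PFKP libraries of each later time point lie below those of the one before, although only its differences from 34 h passed.

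In the energy investment steps, from hexokinase to triose phosphate isomerase, 5 of 9 members (55.6%) fell by 72 h, beside 11.3% of all tested genes, and none rose. The median change of the 9 genes at 72 h was -0.54, beside 0.06 for all tested genes. At 42 h and at 50 h 1 of 9 (11.1%) had changed, beside 2.58% and 6.26% of all tested genes. That gene was PFKP (the platelet-type phosphofructokinase; chromosome 10, 3066333 to 3137712, plus strand), at 113 and 112 TPM at 34 h, 67.4 and 72.8 TPM by 42 h, 49.6 and 45.3 TPM at 50 h, then 37.0 and 36.9 TPM by 72 h. Each pair of libraries lay wholly below the pair before it. PFKP fell by 0.67 ± 0.10 at 42 h (limma adjusted p = 0.00931), fell by 1.23 ± 0.10 at 50 h (adjusted p = 0.000281) and fell by 1.58 ± 0.10 at 72 h (adjusted p = 2.25e-05). The later calls held under all 18 alternatives, while the call at 42 h was lost without either 34 h library (0.0758 and 0.0773) or either 42 h library (0.0833 and 0.0507), over a range of 0.00671 to 0.0833.

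The other phosphofructokinases, PFKL (liver type) and PFKM (muscle type), were higher at 72 h than at 34 h in both replicates, by differences that did not pass. PFKL was at 76.3 and 64.1 TPM at 34 h against 81.2 and 89.5 TPM at 72 h (0.28, limma adjusted p = 0.185). PFKM was at 76.4 and 57.1 TPM at 34 h against 90.4 and 109.5 TPM at 72 h (0.58, adjusted p = 0.0537), a difference that passed under 4 of 18 alternatives: a mean of at least 5 TPM and the removal of 34 h replicate 1 or of either 42 h library, over a range of 0.0422 to 0.270. PFKM shares 628 exon bases with SENP1 on the opposite strand (15.2 to 25.3 TPM). The makeup of the phosphofructokinase transcripts therefore shifted. PFKP held 42.5% and 48.0% of the summed level of the 3 genes at 34 h. By 42 h this share was 30.6% and 37.1%, by 50 h 25.1% and 23.5%, and by 72 h 17.7% and 15.7%, with no overlap between any pair of time points. PFKM held 28.8% and 24.5% at 34 h and 43.3% and 46.4% at 72 h, and was the most abundant of the 3 in both 72 h libraries. The summed level of the 3 genes was 266 and 233 TPM at 34 h, 220 and 196 TPM by 42 h, 198 and 193 TPM at 50 h, then 209 and 236 TPM by 72 h. The 42 h and 50 h sums lay below both 34 h sums, and those of 72 h overlapped them.

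Both hexokinases fell. HK2 (the inducible hexokinase, 1 of whose promoter windows is printed above; chromosome 2, 74833981 to 74893359, plus strand) was at 46.1 and 37.7 TPM at 34 h, 33.0 and 30.7 TPM by 42 h, 29.8 and 29.6 TPM at 50 h, then 18.7 and 17.9 TPM by 72 h. Every later library was below both 34 h libraries, and the 72 h pair was below all others. HK2 fell by 1.14 ± 0.13 from 34 h to 72 h (limma adjusted p = 0.000518, kept under all 18 alternatives). Its difference of -0.47 at 50 h (adjusted p = 0.0675) passed under TMM rescaling and quantile normalization, as low as 0.0367. HK2 also fell by 0.67 ± 0.13 from 50 h to 72 h (adjusted p = 0.0175), a call lost without either 50 h library (0.0669 and 0.0754), without either 72 h library (0.0948 and 0.104) and with those time points fitted alone (0.0631), over a range of 0.0117 to 0.104. HK1, the widely expressed hexokinase, was at 97.7 and 87.4 TPM at 34 h, 78.8 and 75.7 TPM by 42 h, 85.4 and 75.1 TPM at 50 h, then 60.9 and 62.4 TPM by 72 h. Its 72 h libraries were below all the others, and HK1 fell by 0.58 ± 0.10 from 34 h to 72 h (limma adjusted p = 0.00563, kept under all 18). The share of HK2 in the hexokinase sum went from 32.0% and 30.1% to 23.5% and 22.3%, with no overlap, so HK2 declined by more than HK1 in both replicates.

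Both aldolases fell as well. ALDOA, the main isoenzyme here, was at 1159 and 982 TPM at 34 h, 1088 and 951 TPM by 42 h, 1025 and 911 TPM at 50 h, then 714 and 757 TPM by 72 h. ALDOC, the brain isoenzyme, went from 43.0 and 40.4 TPM at 34 h through 37.6 and 31.3 TPM and 35.4 and 32.3 TPM to 23.0 and 26.5 TPM at 72 h. In both genes the 72 h pair lay below all other libraries. ALDOA fell by 0.54 ± 0.11 from 34 h to 72 h (limma adjusted p = 0.00919), a call lost without 34 h replicate 1 (0.0602) or 72 h replicate 1 (0.0644) over a range of 0.00501 to 0.0644. ALDOC fell by 0.73 ± 0.13 (adjusted p = 0.00575, kept under all 18 alternatives). With the replicate block ALDOA also passed from 50 h to 72 h, at -0.39 (adjusted p = 0.0401 with the block and 0.0680 without). ALDOA shares 1657 exon bases with AC093512.2, an overlapping gene listed at 9.25 to 15.4 TPM. Of the 2 other enzymes of this phase, GPI (glucose-6-phosphate isomerase, whose 2 Ensembl entries were summed) was at 357 and 286 TPM at 34 h against 225 and 248 TPM at 72 h (-0.43, limma adjusted p = 0.0603, and 0.0351 with the replicate block), a difference that passed under 8 of 18 alternatives. TPI1 (triose phosphate isomerase) was at 876 and 997 TPM at 34 h against 802 and 874 TPM at 72 h (-0.16, adjusted p = 0.335).

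**Figure D3:**
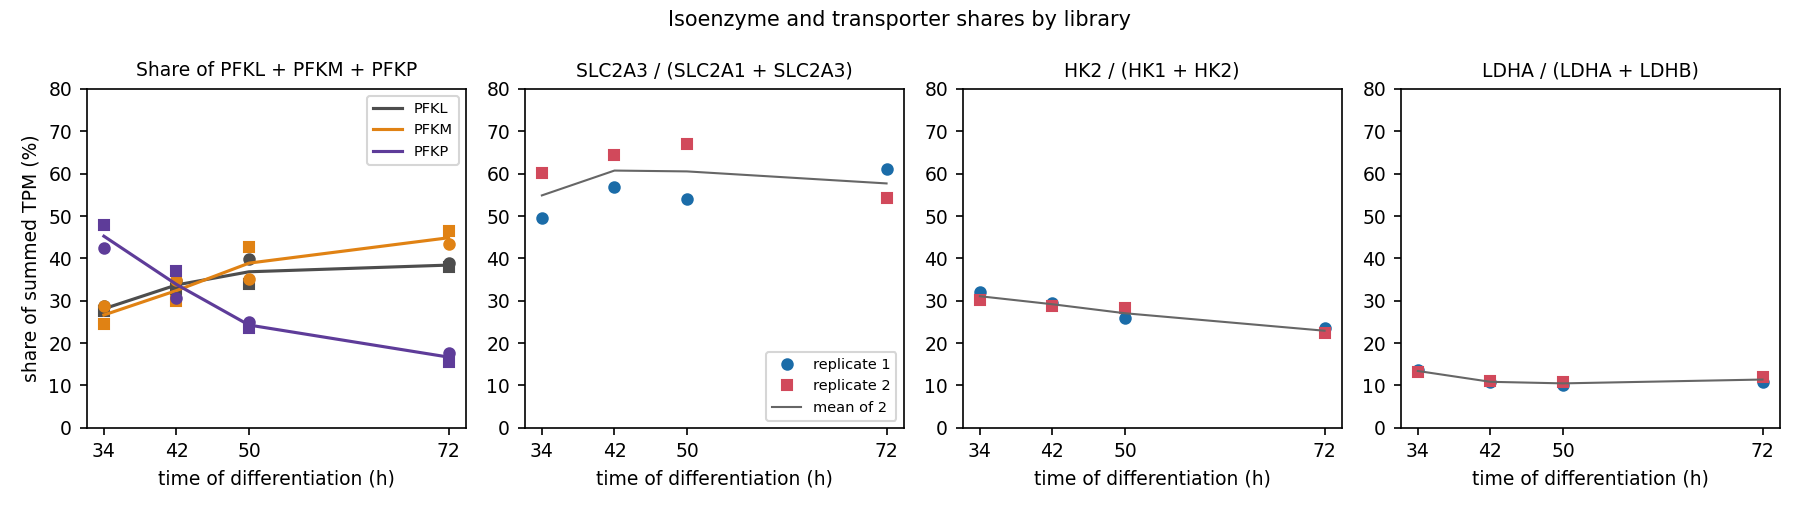
Share of an isoenzyme in the summed TPM of its family (vertical axes, percent) against the time of differentiation in hours (horizontal axes), in every library; circles are replicate 1, squares replicate 2, and lines join the means of 2 libraries. PFKP goes from 42.5% and 48.0% of the phosphofructokinase sum to 17.7% and 15.7%, HK2 declines to 23.5% and 22.3% of the hexokinase sum, and the SLC2A3 share overlaps between 34 h and each later time point.

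The energy payoff steps, which yield ATP and NADH, held most of the members' summed level, at 10076 ± 321 TPM (SD, n = 2) at 34 h against 9202 ± 284 TPM at 72 h. Of their 6 genes none had changed at 42 h or 50 h (limma called 0, beside 2.58% and 6.26% of all tested genes). At an unadjusted p under 0.05 there were 0 and 3, beside 13.9% and 20.6%. At 72 h 1 of the 6 had changed (16.7%, beside 24.0% of all tested genes). GAPDH (glyceraldehyde-3-phosphate dehydrogenase; chromosome 12, 6533927 to 6538374, plus strand) was at 6129 and 5964 TPM at 34 h, 5968 and 5859 TPM by 42 h, 6047 and 5671 TPM at 50 h, then 5024 and 5381 TPM by 72 h. Its 72 h libraries were below all others, and GAPDH fell by 0.22 ± 0.06 from 34 h to 72 h (limma adjusted p = 0.0399). This small change passed under 8 of 18 alternatives only, with adjusted p between 0.0209 and 0.387. The change was lost with no variance trend and with the compared time points alone. It was lost under quantile normalization (0.387), with no filter (0.201), and without either 34 h library (0.162 and 0.114), either 42 h library (0.0624 and 0.0625) or either 72 h library (0.223 and 0.0747).

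ENO2 (neuron-specific enolase) followed a course of its own, at 76.3 and 92.3 TPM at 34 h, 73.7 and 76.3 TPM by 42 h, 56.1 and 66.2 TPM at 50 h, then 99.9 and 102 TPM by 72 h. The 50 h libraries were the lowest and the 72 h libraries the highest. ENO2 rose by 0.72 ± 0.12 from 50 h to 72 h (limma adjusted p = 0.0117), a call lost without 50 h replicate 1 (0.0542), without either 72 h library (0.0780 and 0.0762) and with those time points alone (0.0546), over a range of 0.00733 to 0.0780. The difference from 34 h to 50 h was -0.46 (adjusted p = 0.0704, and 0.0446 with the replicate block). ENO1, the widely expressed enolase, was at 2311 and 2101 TPM at 34 h against 2306 and 2331 TPM at 72 h (0.07, adjusted p = 0.564). PGK1 (phosphoglycerate kinase) was between 256 and 286 TPM, PGAM1 (phosphoglycerate mutase) between 735 and 853 TPM and PKM (pyruvate kinase) between 517 and 648 TPM over all libraries. None of these 3 passed in any comparison, except that PGAM1 did under TMM rescaling alone at 72 h against 34 h (-0.16, adjusted p = 0.118, and 0.0474 when rescaled).

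At the fate of pyruvate, the lactate dehydrogenase transcripts were mostly LDHB, at 1577 and 1735 TPM at 34 h against 1606 and 1559 TPM at 72 h (-0.06, limma adjusted p = 0.647). LDHA, the isoenzyme linked with lactate formation, was at 248 and 266 TPM at 34 h, 202 and 214 TPM by 42 h, 163 and 207 TPM at 50 h, then 195 and 212 TPM by 72 h. All later LDHA libraries were below both 34 h libraries. The LDHA difference was -0.48 at 50 h (adjusted p = 0.0566, and 0.0243 with the replicate block) and -0.33 at 72 h (adjusted p = 0.0813, and 0.0362 with the block). The block was 1 of 4 alternatives among 18 under which LDHA passed in each comparison. At 50 h the others were a mean of at least 5 TPM, TMM rescaling and the removal of 50 h replicate 2, over a range of 0.0178 to 0.263. At 72 h they were the compared time points alone and the removal of either 50 h library, over a range of 0.0281 to 0.299. Its share of the LDHA and LDHB sum was 13.6% and 13.3% at 34 h and between 10.1% and 12.0% in the 6 later libraries, all below both 34 h libraries.

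PDK1 (a pyruvate dehydrogenase kinase, which holds pyruvate back from the mitochondria) was at 4.01 and 4.81 TPM at 34 h, 3.49 and 5.20 TPM by 42 h, 6.80 and 6.76 TPM at 50 h, then 8.92 and 8.17 TPM by 72 h. The 50 h and 72 h libraries were above all earlier ones. PDK1 rose by 0.82 ± 0.20 from 34 h to 72 h (limma adjusted p = 0.0196), a call lost without either 34 h library (0.0995 and 0.0529), without either 72 h library (0.104 and 0.0698) and with no filter (0.0502), over a range of 0.0140 to 0.104. PDK3, another such kinase, was at 26.3 and 17.9 TPM at 34 h against 17.9 and 16.0 TPM at 72 h (-0.34, adjusted p = 0.206, and 0.0475 without 34 h replicate 2). PFKFB3 and PFKFB4, which make and remove the phosphofructokinase activator fructose-2,6-bisphosphate, were at 15.2 and 15.3 TPM and at 8.02 and 10.9 TPM at 34 h, and at 18.5 and 20.8 TPM and 13.8 and 15.8 TPM at 72 h. Both genes were higher in both 72 h libraries, but neither difference passed (0.34, adjusted p = 0.0851, and 0.61, adjusted p = 0.0691).

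Transcripts of the oxygen-regulated factor itself showed no detectable difference, and its protein, on which oxygen acts, was not measured here. HIF1A transcripts (chromosome 14, 61695513 to 61748259, plus strand) were at 131 and 132 TPM at 34 h, 117 and 131 TPM by 42 h, 115 and 135 TPM at 50 h, then 129 and 118 TPM by 72 h, and the F-test over time gave a limma adjusted p of 0.878. The replicates of 50 h lay on either side of the 34 h pair, and those of 72 h lay below it. Of the prolyl hydroxylases that mark HIF alpha subunits, EGLN1 (PHD2) was at 7.16 and 8.51 TPM at 34 h against 10.5 and 8.43 TPM at 72 h (0.24, adjusted p = 0.338) and did not pass in any comparison. EGLN3 (PHD3, itself a HIF target) was at 13.9 and 14.0 TPM at 34 h, 11.2 and 8.70 TPM by 42 h, 7.49 and 6.81 TPM at 50 h, then 12.0 and 8.81 TPM by 72 h. Its 50 h libraries were the lowest, and EGLN3 fell by 0.88 ± 0.19 from 34 h to 50 h (limma adjusted p = 0.0296). The EGLN3 call was lost without either 34 h library (0.131 and 0.145), without either 50 h library (0.0920 and 0.117), with no filter (0.0747) and with those time points alone (0.0583), over a range of 0.0214 to 0.145. Its difference at 72 h was -0.41 (adjusted p = 0.152).

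The 9 tested members of the wider hypoxia response did not move together: at 72 h 2 rose, 2 fell and 5 did not pass, with a median of -0.09. The share called was 44.4%, beside 24.0% of all tested genes (12.7% rose and 11.3% fell). ADM (adrenomedullin, a vasodilator peptide; chromosome 11, 10304680 to 10307397, plus strand) had the largest change of any member, at 66.2 and 68.1 TPM at 34 h, 51.9 and 50.1 TPM by 42 h, 49.2 and 47.1 TPM at 50 h, then 8.15 and 13.8 TPM by 72 h. The 72 h libraries were below all the others, and the widest step lay between 50 h and 72 h. Over the whole course ADM fell by 2.55 ± 0.20 (limma adjusted p = 8.09e-05), and it fell by 2.08 ± 0.20 from 50 h to 72 h (adjusted p = 0.000889), both kept under all 18 alternatives. VEGFA (the vascular endothelial growth factor; chromosome 6, 43770184 to 43786487, plus strand) was at 35.2 and 43.4 TPM at 34 h, 38.2 and 40.1 TPM by 42 h, 25.3 and 32.9 TPM at 50 h, then 15.2 and 21.4 TPM by 72 h. The 72 h pair lay below all other libraries, and VEGFA fell by 1.08 ± 0.19 from 34 h to 72 h (limma adjusted p = 0.00549, kept under all 18 alternatives). From 50 h to 72 h the VEGFA difference was -0.65 (adjusted p = 0.0872, and 0.0262 with the replicate block).

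HILPDA and BNIP3L went the other way. HILPDA (a lipid droplet protein that inhibits lipolysis; chromosome 7, 128455849 to 128458418, plus strand) was at 29.1 and 27.5 TPM at 34 h, 33.4 and 30.7 TPM by 42 h, 38.9 and 33.6 TPM at 50 h, then 46.0 and 47.8 TPM by 72 h. Every later library was above both 34 h libraries, and HILPDA rose by 0.71 ± 0.12 from 34 h to 72 h (limma adjusted p = 0.00346, kept under all 18 alternatives). BNIP3L (NIX, a receptor for the removal of mitochondria) was at 33.6 and 35.4 TPM at 34 h, 30.2 and 31.4 TPM by 42 h, 33.4 and 36.2 TPM at 50 h, then 52.1 and 46.9 TPM by 72 h. Its 72 h libraries were above all the others, and BNIP3L rose by 0.51 ± 0.11 from 34 h to 72 h (limma adjusted p = 0.0122), a call lost without 34 h replicate 1 (0.0681) or 72 h replicate 1 (0.0908), over a range of 0.0103 to 0.0908. The rise of 0.50 ± 0.11 from 50 h to 72 h (adjusted p = 0.0318) was lost without any single library of the 8 (0.0529 to 0.203).

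The other hypoxia response members did not pass in any comparison with 34 h. BNIP3, the paralog of BNIP3L, was between 26.0 and 35.1 TPM, and its value is uncertain because 39 pseudogenes named for it summed to between 21.0 and 41.2 TPM. ANKRD37, an ankyrin repeat protein gene induced by HIF, was at 4.01 and 2.68 TPM at 34 h, 1.38 and 0.651 TPM by 42 h, 1.30 and 0.535 TPM at 50 h, then 3.56 and 2.55 TPM by 72 h. Its 42 h and 50 h libraries were all below its 34 h and 72 h libraries. The ANKRD37 F-test over time passed (limma adjusted p = 0.0446), while the single differences of -1.11 at 42 h (0.142), -1.19 at 50 h (0.0666) and 1.10 from 50 h to 72 h (0.0766) passed only with the replicate block (0.0487, 0.0226 and 0.0273). ANKRD37 shares 909 exon bases with UFSP2 on the opposite strand (21.8 to 47.7 TPM). NDRG1, a stress-responsive gene, was at 3.10 and 4.02 TPM at 34 h against 1.33 and 1.06 TPM at 50 h (-1.05, adjusted p = 0.0924). P4HA1 and P4HA2, subunits of collagen prolyl hydroxylase, were at 9.92 and 12.5 TPM and at 3.41 and 2.53 TPM at 34 h, and at 14.0 and 13.4 TPM and at 2.21 and 2.27 TPM at 72 h.

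**Figure D4:**
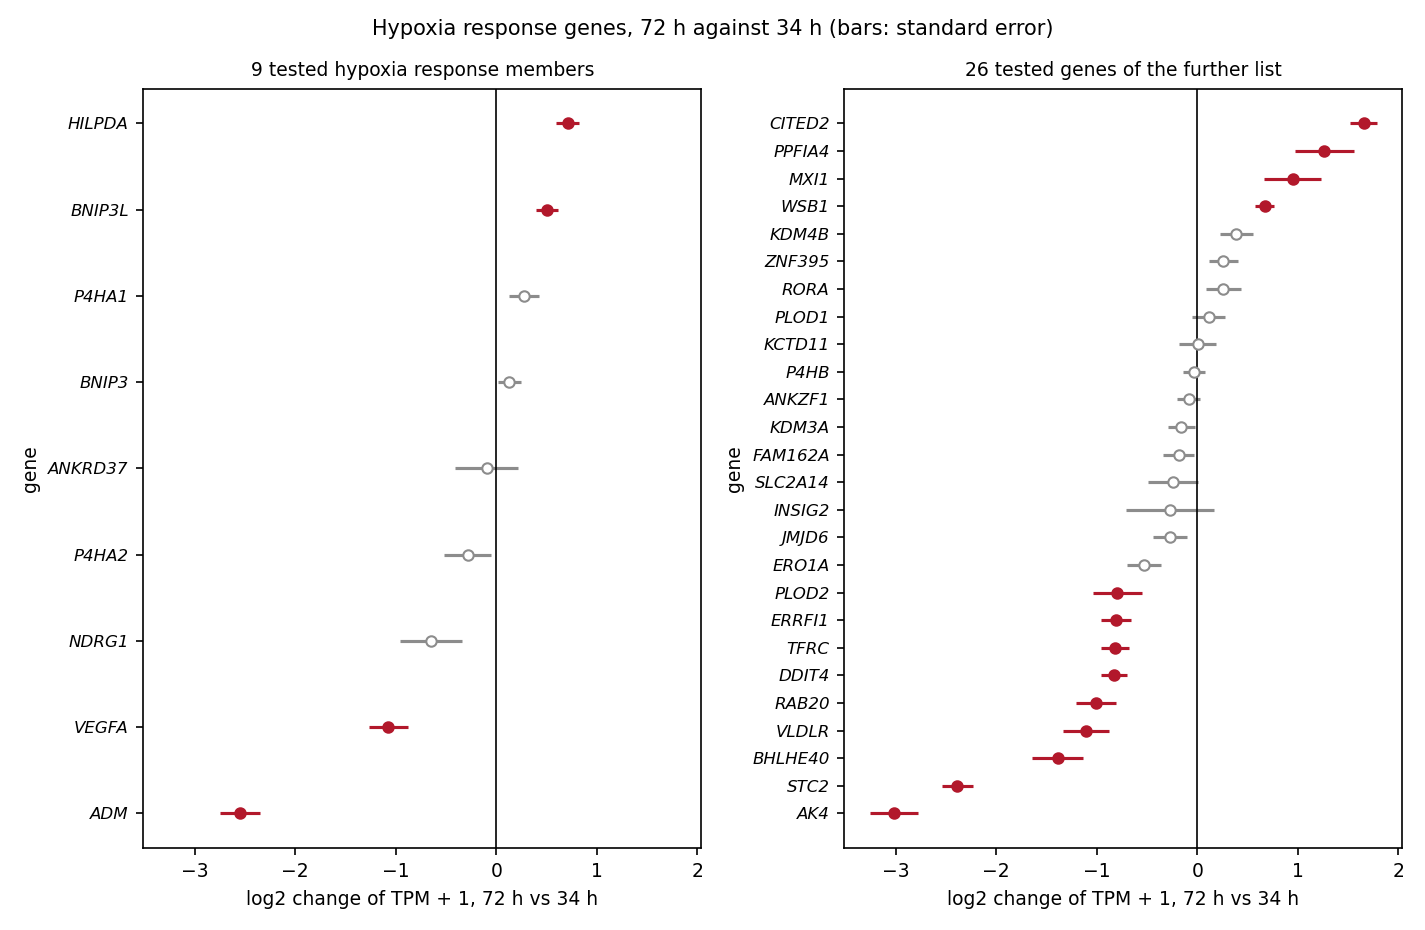
Difference of log2(TPM + 1) between 72 h and 34 h (horizontal axes) for the 9 tested hypoxia response members on the left and 26 further hypoxia response genes on the right (vertical axes, ordered by value); points are limma estimates, bars are standard errors, and filled red points have an adjusted p under 0.05. ADM is lowest on the left at -2.55 and AK4 lowest on the right at -3.02, and both panels hold genes that rose and genes that fell.

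The rest of the pathway was read from 7 further lists of 102 genes, of which 99 were in the table and 84 were tested. At 72 h against 34 h 28 of the 84 had changed (33.3%, beside 24.0% of all genes), 12 up and 16 down, with a median of -0.05. At 42 h 5 had changed (5.95%, beside 2.58% of all genes), at 50 h 12 (14.3%, beside 6.26%), and from 50 h to 72 h 9 (10.7%, beside 7.33%). Leaving out any single 34 h or 72 h library left between 16 and 18 calls at 72 h, and 1840 to 2176 of all genes in place of 3578. Over all single libraries left out, the count was 0 to 4 at 42 h, 6 to 11 at 50 h and 3 to 7 from 50 h to 72 h.

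Further hypoxia response genes made up 14 of those 28 calls, from 27 tested (51.9%, beside 24.0% of all genes), with 4 up (CITED2, MXI1, PPFIA4 and WSB1) and 10 down and a median of -0.24. The largest difference was in AK4 (a mitochondrial adenylate kinase), at 23.7 and 23.6 TPM at 34 h, 12.4 and 14.9 TPM by 42 h, 5.34 and 5.10 TPM at 50 h, then 1.34 and 2.95 TPM by 72 h, with no overlap between time points. AK4 fell by 3.02 ± 0.24 by 72 h (limma adjusted p = 8.89e-05). STC2 (stanniocalcin, a secreted glycoprotein) went from 55.6 and 65.2 TPM to 9.70 and 11.8 TPM and fell by 2.39 ± 0.15 (adjusted p = 2.78e-05). Both calls held under every alternative that could be fitted.

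Among 12 tested genes of gluconeogenesis and glycogen, 3 fell and 2 rose by 72 h (41.7%, beside 24.0% of all genes). UGP2 (which makes UDP-glucose for glycogen) was at 563 and 584 TPM at 34 h, 319 and 322 TPM by 42 h, 174 and 266 TPM at 50 h, then 82.8 and 79.4 TPM by 72 h, each pair below the one before. UGP2 fell by 2.81 ± 0.17 (limma adjusted p = 2.04e-05). PCK2 (mitochondrial phosphoenolpyruvate carboxykinase) went from 123 and 131 TPM to 34.9 and 40.1 TPM and fell by 1.73 ± 0.10 (adjusted p = 1.94e-05). FBP1 (fructose bisphosphatase) went from 5.51 and 4.22 TPM to 0.136 and 0.141 TPM and fell by 2.36 ± 0.23 (adjusted p = 0.000277). All 3 passed under every alternative that could be fitted.

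Of 14 further glycolysis isozymes and regulators, 3 rose by 72 h and none fell, a share of 21.4% that lies near the 24.0% of all genes changed. ENO3, the muscle enolase, went from 15.9 and 16.2 TPM to 34.5 and 33.3 TPM and rose by 1.03 ± 0.14 (limma adjusted p = 0.00141). PGAM2, the muscle phosphoglycerate mutase, and SLC2A4 (GLUT4) rose at low levels by 2.03 ± 0.50 (adjusted p = 0.0219) and 0.83 ± 0.22 (adjusted p = 0.0286). PGAM2 and SLC2A4 were both lost without any single 34 h or 72 h library, up to adjusted p values of 0.114 and 0.144. Both were also lost with no filter, and PGAM2 with a pseudocount of 0.1. Of 10 tested HIF subunits and degradation genes, 3 rose and 1 fell by 72 h (40%, beside 24.0% of all genes). ARNT, the partner of HIF1A, went from 13.1 and 11.7 TPM to 21.5 and 20.8 TPM and rose by 0.73 ± 0.14 (limma adjusted p = 0.00819, and 0.0569 at most when 34 h replicate 2 or 72 h replicate 1 was left out). ARNT2 rose by 0.58 ± 0.16 (adjusted p = 0.0352) and VHL by 0.55 ± 0.16 (adjusted p = 0.0393), and neither call was secure. ARNT2 passed under 12 of 18 alternatives and was lost without any single 34 h or 72 h library (up to 0.178), with no filter (0.0640) and under quantile normalization (0.0655). VHL passed under 8 of 18, and was lost without 34 h replicate 1 (0.186), either 42 h library (0.0559 and 0.0561) or either 72 h library (0.149 and 0.127). It was also lost with no filter (0.0737), TMM rescaling (0.0609), quantile normalization (0.0747), no variance trend (0.0661) and the compared time points alone (0.0781).

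In the pentose phosphate pathway 1 of 6 tested genes (16.7%, beside 24.0% of all genes) had changed by 72 h: TALDO1 (transaldolase) went from 315 and 297 TPM to 191 and 188 TPM and fell by 0.69 ± 0.09 (limma adjusted p = 0.00107). In the entry of pyruvate into mitochondria 1 of 11 (9.09%, also below that share) had changed: PDHX, a subunit of the pyruvate dehydrogenase complex, went from 27.4 and 29.1 TPM to 20.6 and 21.1 TPM and fell by 0.42 ± 0.11 (adjusted p = 0.0322). The PDHX call was lost without any single 34 h or 72 h library, at up to 0.147, and with the compared time points alone. Of 4 splicing factors that govern the choice of PKM exons limma called 0 at 72 h, beside 24.0% of all genes, with 1 (25%) at an unadjusted p under 0.05, beside 36.9%.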

How the data were processed

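Poly(A) RNA of 8 libraries, 2 at each of 4 time points, was analysed from the TPM table that the authors deposited, with a value for each Ensembl gene. Salmon 1.9.0 and GRCh38 are named in the submitters' processing notes; the annotation and strand setting are not given in the sources used here. TPM keeps no read number, so depth is unknown. Entries with the same symbol were summed. The 14908 genes that reached 1 TPM in 2 or more libraries were tested as log2(TPM + 1) with limma 3.58.1 in R 4.3.3, with 1 mean per time point, all 8 libraries in the fit (4 residual degrees of freedom) and a variance that followed the mean level. P-values were Benjamini-Hochberg adjusted over all tested genes at a threshold of 0.05, and measure only the spread between these libraries. An exact permutation test of 2 against 2 cannot go below 0.333, so none was used. The fit was tested on simulated data.

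The members, the marker lists and the 7 further lists were chosen with earlier results of these data known. All members may be named; from each further list the 3 genes with the largest change against 34 h among those that passed were named, apart from the 4 further hypoxia genes given as having risen, which were named after their values were seen. The result of 1 gene that met this rule is not reported here. MIR210HG, G6PC1 and PGLS were not analysed here.

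The replicate number is a batch label. Differences between replicates 1 and 2 correlated across the tested genes at 0.0949, 0.195 and 0.142 between 34, 42 and 50 h, and at -0.0445, -0.0779 and -0.104 between each of these and 72 h, and a fit with the number as a block was an alternative. The others were a pseudocount of 0.1, no filter, a mean of at least 5 TPM, trimmed-mean (TMM) rescaling (trims of 30% and 5%), quantile normalization, mitochondrial genes removed, Ensembl entries apart, no variance trend, the compared time points alone and each library left out.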

Additional observations from a re-analysis of the deposited data

How the results depend on the processing

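Of 25 calls of a member in a comparison, 13 held under all 18 alternatives, 14 further calls appeared only under an alternative, and none reversed. For members, 50 h against 34 h gave 4 calls, 2 with the compared time points alone and 2 to 4 with a library left out; 72 h against 50 h gave 4, 1 alone and 1 to 3 with a library left out; 42 h against 34 h gave 3, and 1 to 3 with a library left out. The F-test gave 14, 9 with no filter and 5 to 14 with a library left out. For the further lists, 42 h against 34 h gave 5 calls, 0 with no filter, 2 without the variance trend, 1 alone and 0 to 4 with a library left out; 50 h against 34 h gave 12, 6 alone and 6 to 11; 72 h against 34 h gave 28, and 16 to 27; 50 h against 42 h gave 0, and 0 to 1; 72 h against 50 h gave 9, 5 with no filter, 4 alone and 3 to 7. The cause of these differences was not tested. Over all genes, 42 h against 34 h gave 384 calls, and 160 to 385 with a library left out; 50 h against 34 h gave 933, and 412 to 809; 72 h against 34 h gave 3578, and 1840 to 3661; 72 h against 50 h gave 1093, and 319 to 929; 50 h against 42 h gave 14, 7 with the replicate block, 0 alone, and 1 to 8 with a library left out. The shares of all genes printed beside the members' counts move with them. Their balance of direction also turned with the scaling. At 72 h against 34 h 1900 genes rose and 1678 fell, but 1621 and 1910 with TMM rescaling and 1638 and 1796 with quantile normalization. At 50 h against 34 h 525 rose and 408 fell, but 460 and 483 with TMM rescaling and 466 and 474 with quantile normalization. Over all genes, the time points alone gave 171 calls at 42 h, 431 at 50 h and 3252 at 72 h, in place of 384, 933 and 3578, and with no filter 256, 686 and 3019.

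With the replicate number as a block, members gave 7 calls at 50 h against 34 h and 7 at 72 h against 50 h. The blocked values stand beside the members whose call changed (SLC16A1, GPI, ALDOA, ENO2, LDHA, VEGFA and ANKRD37), and no other member call between time points changed. Across the 37 tested members the replicate differences correlated at 0.563 between 34 and 42 h and at -0.120 between 42 and 72 h.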

Other observations

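The 2 Ensembl entries of GPI differed in steadiness. ENSG00000105220 held 306 ± 33.1 TPM (SD, n = 2) at 34 h and 230 ± 21.1 TPM at 72 h, while ENSG00000282019, which is not in GENCODE release 29, ranged from 0.571 to 27.5 TPM over the libraries, with an SD between replicates of 17.1 TPM at 34 h.

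Without mitochondrially encoded genes, which held between 8.70% and 11.2% of the TPM, the summed level of the members was 17855 TPM at 34 h and 16207 TPM at 72 h.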
